A study of Mus musculus with 12 samples.

Results

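Mitochondrial ribosomal proteins are encoded in the nucleus, made in the cytosol and imported into mitochondria, where they join a small and a large mitochondrial rRNA to build the mitochondrial ribosome, or mitoribosome. This ribosome translates the messenger RNAs of mitochondrial DNA, all of which code for subunits of the respiratory chain complexes and ATP synthase, so its proteins stand upstream of oxidative phosphorylation. The small subunit (Mrps genes) reads the messenger RNA, and the large subunit (Mrpl genes) forms the peptide bonds and releases the new chain next to the inner membrane. Some of the proteins descend from those of the bacterial ribosome, and the others occur only in mitochondria.

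The genes were taken from the count table by symbol, as every row named Mrpl or Mrps followed by a digit, without the pseudogene rows whose names hold -ps. Of 55335 rows, 84 met the pattern, 6 of them were pseudogene rows, and 78 genes remained, 49 named for the large subunit and 29 for the small. All 78 are protein coding in GENCODE release M21 (GRCm38), no symbol was repeated, and all 78 passed the filter on low counts in every comparison, the lowest count in any library being 52. By homology 45 belong to the bacterial core, 31 are specific to mitochondria and 2 (Mrpl55 and Mrps36) were left unclassified. A symbol does not always give the place of the protein: Mrps18a and Mrps30 are now placed in the large subunit, which gives 51 large and 26 small subunit proteins, and Mrps36 is now known as a component of the 2-oxoglutarate dehydrogenase complex.

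RNA was sequenced from 12 samples of male C57BL/6N mice, 3 in each of 4 groups. The controls (Tshr f/f) carried the thyrotropin receptor gene Tshr with loxP sites around its last coding exon, and the Tshrf/f,Lyz2-Cre animals (TshrMKO) also carried Cre under the Lyz2 promoter, which is active in macrophages, monocytes and neutrophils. Bone-marrow-derived macrophages (BMDMs) were grown for 7 days in M-CSF at 10 ng/mL and all of them then received TSH at 1 ng/mL for 24 h, so no BMDM library without TSH was compared. The marrow was taken from mice 6 weeks old. The livers came from mice that were 6 weeks old when they began a high-fat diet of 9 weeks, and that were fasted for 8 h and given insulin at 1.5 U/kg for 5 min before collection. In liver, Cre acts in the myeloid cells and not in the hepatocytes that give most of the RNA, and fewer cells of a type cannot be told apart from less RNA per cell.

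Libraries held 28962878 to 40954211 counts. The targeted gene could not check the labels, because Tshr had 0 counts in all 6 livers, 0, 0 and 2 in BMDMs from Tshr f/f mice and 0, 0 and 5 in those from TshrMKO mice, where 3 counts correspond to 0.0733 to 0.104 CPM (counts scaled by library size to a common total). The receptor counts that the study prints for these livers stand under the opposite genotype headings, so every direction in liver below follows the deposited library labels and would turn if these were crossed. Hepatocyte markers (6 genes) summed to 75993 to 100728 CPM in liver and to at most 0.0783 CPM in BMDMs, where Alb, Ttr, Cyp2e1, Serpina1c and Cps1 were at 0. A list of 6 macrophage markers summed to 14313 to 29306 CPM in BMDMs and to 113 to 312 CPM in liver. One library stood apart, Tshr f/f BMDM replicate 3: its 78 members took 0.105% of all counts against 0.143 to 0.176% in the other 5 BMDM libraries, and its TMM scaling factor was 0.738 against 0.993 to 1.11.

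Promoter windows were read because the proteins share regulators: nuclear respiratory factor 1 (NRF1), the ETS factor GABP, YY1 and the estrogen-related receptors (ERR) are known activators of nuclear genes for mitochondrial proteins. In the RefSeq windows for GRCm38.p6, which run from 250 bases before to 50 bases after an annotated start, 69 of the 78 genes were matched by symbol. The letters searched on both strands were CGCATGCG for NRF1, CCGGAAG for ETS, AAGATGGC for YY1 and AAGGTCA for ERR. The ETS letters stood in 26 of 69 members (37.7%) against 9.93% of all 27025 genes with a window, the YY1 letters in 12 (17.4%) against 3.19%, the NRF1 letters in 7 (10.1%) against 2.07% and the ERR letters in 4 (5.8%) against 5.38%. At least 1 of the 4 was present in 40 members, 2 or more in 9, and none in 29, where these exact letters were not in this window. A match is a description of the sequence and not a bound site.

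The stretches below, 5′ to 3′ on the strand of the gene and outside every annotated exon, belong to members on which the comparisons turn, with the matched letters in capitals. Mrpl9 and Mrps18a are among the 6 members with the lowest p in liver, and the Mrps16 stretch, of the member with the lowest, has none of the 4 motifs, although one of its windows does hold the ETS letters farther on, inside the gene as GENCODE annotates it. Mrpl52 had a low p in BMDMs, Mrpl34 had the highest fold change in BMDMs, and Mrpl43 had the lowest in liver.
Mrpl9 (chr3:94443218-94443317, plus strand, NRF1): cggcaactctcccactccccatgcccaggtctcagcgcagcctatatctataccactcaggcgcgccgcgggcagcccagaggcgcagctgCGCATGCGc
Mrps18a (chr17:46110886-46110985, plus strand, ETS): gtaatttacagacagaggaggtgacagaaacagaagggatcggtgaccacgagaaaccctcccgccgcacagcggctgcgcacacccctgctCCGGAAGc
Mrps16 (chr14:20393635-20393734, minus strand, no match in this stretch): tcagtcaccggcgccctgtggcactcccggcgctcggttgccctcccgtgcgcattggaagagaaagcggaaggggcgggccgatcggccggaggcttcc
Mrpl52 (chr14:54426809-54426908, plus strand, ETS on the other strand): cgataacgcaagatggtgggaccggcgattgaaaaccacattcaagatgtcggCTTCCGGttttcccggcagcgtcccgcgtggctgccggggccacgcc
Mrpl34 (chr8:71464826-71464925, plus strand, ETS): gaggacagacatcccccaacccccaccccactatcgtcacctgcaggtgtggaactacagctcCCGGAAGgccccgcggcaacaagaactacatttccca
Mrpl43 (chr19:45006443-45006542, minus strand, ETS at 2 places): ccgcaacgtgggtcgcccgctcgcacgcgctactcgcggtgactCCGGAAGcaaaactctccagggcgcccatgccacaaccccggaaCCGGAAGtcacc

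The NRF1 letters of Mrpl9 began 27 bases before the RefSeq start and the ETS letters of Mrps18a 26 bases before it. Mrpl43 held its ETS letters 56 and 12 bases before the start, and Mrps16, which is counted among the 26 members, 74 bases before and 24 bases after the later of its RefSeq starts. The median log2 fold change in liver was 0.23 for the 26 members with the ETS letters and 0.20 for the others, and in BMDMs it was -0.01 and -0.05. For the 7 members with the NRF1 letters the medians were 0.18 against 0.22 in liver and -0.02 against -0.05 in BMDMs. They were 0.17 against 0.23 and 0.02 against -0.05 for the 12 with the YY1 letters, and 0.36 against 0.20 and 0.10 against -0.05 for the 4 with the ERR letters.

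Which members were abundant was described first in the Tshr f/f libraries, as CPM divided by the kilobases (kb) of all annotated exons of a gene. In liver the members ranged from 1.41 to 41.7 CPM per kb with a median of 8.15, and in BMDMs from 1.04 to 31.9 with a median of 8.04. Mrpl12, the protein of the flexible stalk that also binds the mitochondrial RNA polymerase, led the liver with 43.6, 38.2 and 43.3 CPM per kb in the 3 libraries. These were above the values of every other member.

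In liver, the next levels per length were those of Mrps21 (26.2 ± 1.61 CPM per kb, SD, n = 3), Mrpl34 (25.7 ± 3.92) and Mrpl18 (25.4 ± 3.18), which did not differ beyond their spread. Mrps7, which binds the small subunit rRNA early in assembly, stood at 22.7 ± 1.82, and Mrps12, a protein of the decoding centre, at 17.2 ± 2.53. The lowest of the large subunit were Mrpl33 (1.41 ± 0.257) and Mrpl19 (1.84 ± 0.135), and those of the small subunit were Mrps35 (2.08 ± 0.0541) and Mrps25 (2.12 ± 0.699), whose spread covered Mrpl19 and Mrps35. The ranks depended on the length used. The exons of Mrpl33 add up to 7326 bases and its principal transcript to 478, and per kb of the latter it ranked 20 of 78 and not 78. Mrpl34 went from rank 3 to 14, Mrpl18 from 4 to 9 and Mrpl42 from 41 to 2, while Mrpl12 stayed at 1. Levels on the scales of all exons and of the principal transcript had a Spearman rho of 0.76 in liver and 0.708 in BMDMs.

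In BMDMs, Mrps21 was the most abundant member per kb of exon, with 29.4, 35.9 and 30.3 CPM per kb. Per kb of the principal transcript it ranked 3 at 48.3 CPM per kb, behind Mrpl52 (56.1) and Mrpl33 (53.5). On the scale of all exons, Mrpl24, a protein at the exit of the peptide tunnel, stood at 24.9 ± 1.84, Mrpl27 at 22.6 ± 2.05 and Mrpl52 at 21.1 ± 7.04, and these 3 did not differ beyond their spread. Mrps18c (18.6 ± 0.454), the member of the Mrps18 trio that takes the place of bacterial S18, and Mrps23 (15.6 ± 2.03) followed in the small subunit. The lowest of each subunit were Mrps35 (1.04 ± 0.407), Mrps26 (2.16 ± 0.459), Mrpl47 (2.23 ± 0.151) and Mrpl57 (2.4 ± 0.294). Across the 78 members the levels in the 2 tissues had a Spearman rho of 0.827, a description over genes that share their exon lengths.

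**Figure D1:**
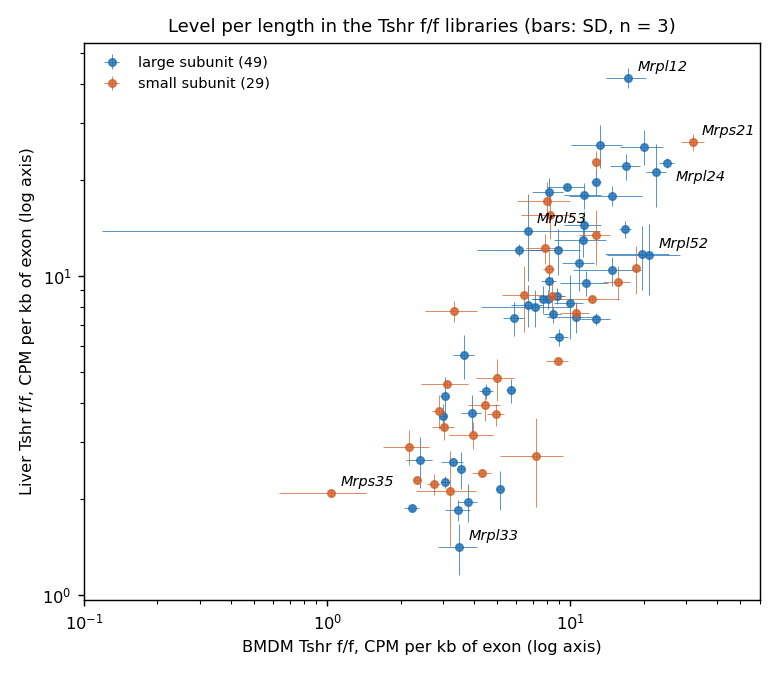
Level of each of the 78 members in Tshr f/f liver (vertical) against Tshr f/f BMDMs (horizontal), in CPM per kb of exon on log axes; points are means and bars SD of 3 libraries, coloured by subunit. Mrpl12 is highest in liver at 41.7 CPM per kb and Mrps21 highest in BMDMs at 31.9, and Mrpl53 has the widest bar in BMDMs.

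The tissues themselves were compared in the Tshr f/f libraries, liver over BMDMs and the values depended on the scale. With TMM factors, which lay at 0.691 to 0.792 in liver and 1.05 to 1.59 in BMDMs, 73 members had a positive log2 difference, with a median of 0.89. At an adjusted p under 0.05 (edgeR), 58 members were higher in liver and 0 lower, against 33.8% of all 15931 genes higher and 29.6% lower. At an unadjusted p under 0.05 the numbers were 62 and 0, against 35.7% and 31.9% of all genes. With library size as the only scale, 42 members had a positive value with a median of 0.05, and the calls were 11 higher and 11 lower, while the median of all genes moved from 0.05 to -0.78. Under the latter 22 of the 78 passed in place of 58, against 65.5% of all genes in place of 63.4%.

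The members at the ends of this range kept their direction under both scales. Mrpl12 had 89.3, 79.7 and 90.3 CPM in liver and 21.2, 21.7 and 15.3 CPM in BMDMs, both scaled in 1 fit, a log2 difference of 2.16 ± 0.19 (SE, adjusted p = 0.000178) with TMM factors and 1.30 (adjusted p = 0.00775) with library size alone. The groups were far apart. Mrps31 (2.11 ± 0.21, and 1.24 with library size alone), Mrpl50 (2.06 ± 0.17, and 1.201) and Mrps12 (1.99 ± 0.24, and 1.11) followed, each at an adjusted p under the threshold on both scales.

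Mrps36, Mrpl33, Mrpl3 and Mrpl23 had the lowest log2 differences with TMM factors, at -0.52, -0.42, -0.36 and -0.07, and none of the 4 passed. Mrpl3, a protein near the peptidyl transferase centre, had 16.5, 19.4 and 22.1 CPM in liver and 25.1, 23.8 and 26.1 CPM in BMDMs. With library size alone all 4 were lower in liver, from -1.42 for Mrps36 (adjusted p = 0.0269) to -0.92 for Mrpl23 (adjusted p = 0.0254).

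The main question was whether the members differed between livers of TshrMKO and Tshr f/f mice. No member passed the adjusted threshold, but 71 of 78 had a positive log2 fold change, and 21 were higher and 0 lower in the livers labelled TshrMKO at an unadjusted p under 0.05. The share of all 15062 genes tested that was higher at that p was 5.27%, the share lower was 5.18%, and 49.1% had a positive value. The adjusted count was 0 by edgeR (0.00% of all genes in each direction) and 2 by DESeq2, which called 269 genes (1.79%). The differences were small, with a median log2 fold change of 0.21 over the members and -0.01 over all genes.

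Summed over the 49 large subunit genes, the livers labelled Tshr f/f had 1152, 1008 and 1030 CPM and those labelled TshrMKO 1232, 1181 and 1226 CPM. Over the 29 small subunit genes the sums were 561, 503 and 493 CPM against 609, 586 and 620 CPM. All 3 TshrMKO livers were above all 3 Tshr f/f livers in both subunits. As shares of all counts, without scaling factors, the members took 0.153, 0.158 and 0.158% in Tshr f/f livers and 0.187, 0.184 and 0.18% in TshrMKO livers.

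The balance of the subunits was similar in both genotypes: the ratio of large to small sums was 2.05 ± 0.0441 (SD, n = 3) in Tshr f/f livers and 2.01 ± 0.0248 in TshrMKO livers, which overlapped. The median log2 fold change was 0.19 over the large subunit (12 higher of 49) and 0.23 over the small (9 higher of 29), and with the structural assignment 0.19 (13 of 51) and 0.22 (8 of 26). The 45 members of the bacterial core had a median of 0.26, with 19 higher, and the 31 mitochondria-specific members 0.17, with 2 higher. Groups did not overlap in 28 members, all of them higher in TshrMKO, against 9.60% of all genes higher and 7.74% lower.

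**Figure D2:**
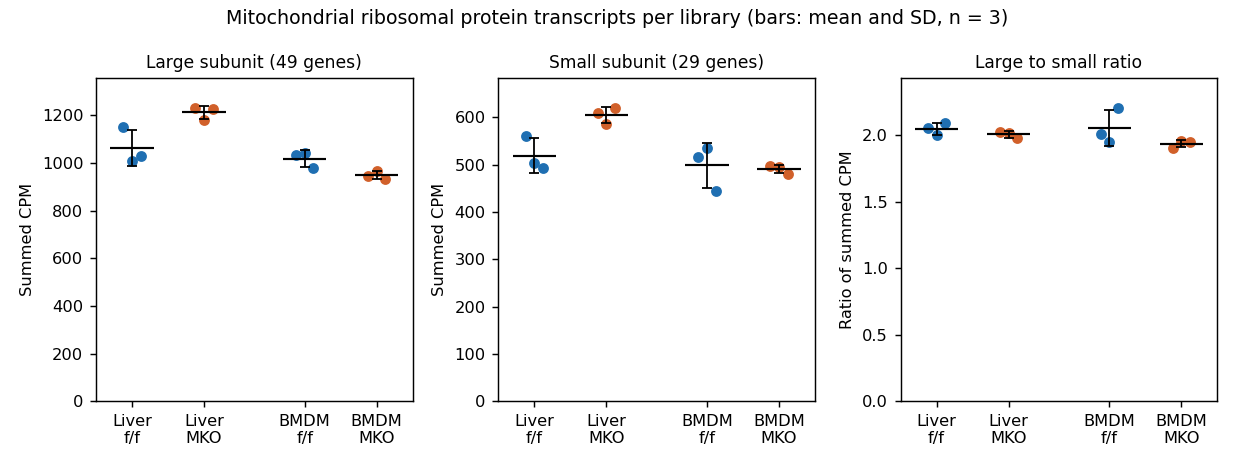
Summed CPM of the 49 large and 29 small subunit genes and their ratio in each library, by tissue and genotype; points are libraries, lines and bars the mean and SD of 3, and CPM were scaled within each tissue. The 3 TshrMKO livers lie above the 3 Tshr f/f livers in both subunits, and the ratio lies between 1.9 and 2.21 in all 12 libraries.

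Mrps16 (chromosome 14, 20389304 to 20393634), a bacterial-type protein of the small subunit body, had 9.68, 8.08 and 9.52 CPM in Tshr f/f livers and 14.4, 13.8 and 13.7 CPM in TshrMKO livers. The lowest TshrMKO liver was well above the highest Tshr f/f liver. Its log2 fold change was 0.62 ± 0.12 (SE), the highest of the members, with an adjusted p of 0.315 by edgeR and 0.0102 by DESeq2 (0.61).

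Mrpl9 (chromosome 3, 94443318 to 94451130), a large subunit protein at the base of the stalk that holds Mrpl1, had 26.9, 27.7 and 23.7 CPM against 43.9, 35.8 and 34.0 CPM. The groups did not overlap, and TshrMKO replicate 1 was the highest. The log2 fold change was 0.54 ± 0.13 (SE), with an adjusted p of 0.334 by edgeR and 0.0479 by DESeq2.

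Mrpl14 (chromosome 17, 45686322 to 45698495), which lies at the interface of the subunits, had 18.3, 17.6 and 18.05 CPM in Tshr f/f livers and 21.6, 24.9 and 22.7 CPM in TshrMKO livers. Mrpl36 (chromosome 13, 73328513 to 73332178), a small protein of bacterial type, had 12.1, 10.1 and 10.9 CPM against 15.5, 15.3 and 14.1 CPM. Neither overlapped between the groups, and the log2 fold changes were 0.36 ± 0.09 and 0.44 ± 0.12 (SE; edgeR adjusted p = 0.334 for both).

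Mrps21 (chromosome 3, 95862634 to 95871519) had 20.6, 18.2 and 19.3 CPM in Tshr f/f livers and 24.6, 23.9 and 28.99 CPM in TshrMKO livers, a log2 fold change of 0.41 ± 0.11. Mrps18a (chromosome 17, 46110986 to 46128910), despite its name a large subunit protein, had 19.5, 20.2 and 20.1 CPM against 27.1, 24.8 and 23.4 CPM, a log2 fold change of 0.33 ± 0.09. In both genes every TshrMKO liver was above every Tshr f/f liver, at edgeR adjusted p of 0.334 and 0.343.

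Mrps18a has 2 paralogs in the mitoribosome, which had smaller values and overlapping groups. Mrps18b had 34.2, 23.5 and 26.4 CPM against 31.8, 30.2 and 33.3 CPM (0.18 ± 0.15), and Mrps18c had 13.5, 11.03 and 9.65 CPM against 11.1, 13.6 and 15.6 CPM (0.23 ± 0.18). Mrps30, the other large subunit protein with a small subunit name, stood at 0.18 ± 0.11. The difference between the paralogs was not tested.

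Mrpl12 had 66.8, 58.5 and 66.4 CPM in Tshr f/f livers and 80.7, 80.4 and 76.1 CPM in TshrMKO livers. The groups did not overlap, the log2 fold change was 0.31 ± 0.09 (SE), and the edgeR adjusted p was 0.347. Mrpl58, a peptidyl-tRNA hydrolase that frees stalled ribosomes, had 15.0, 14.9 and 13.6 CPM against 16.5, 16.8 and 15.1 CPM (0.16 ± 0.10), and Mrps12 stood at 0.15 ± 0.14 with overlapping groups. Mrps36 had 4.57, 3.42 and 2.42 CPM against 6.43, 4.74 and 4.64 CPM, a log2 fold change of 0.60 with an SE of 0.28.

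The lowest values in liver were those of Mrpl43 (-0.13 ± 0.11), Mrps22 (-0.11 ± 0.17) and Mrpl37 (-0.11 ± 0.10). Mrpl43, a mitochondria-specific protein, had 24.0, 19.4 and 22.5 CPM in Tshr f/f livers and 20.4, 19.3 and 20.5 CPM in TshrMKO livers. The groups overlapped in all 3 genes. Of the 7 members with a negative value, 6 belong to the large subunit.

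**Figure D3:**
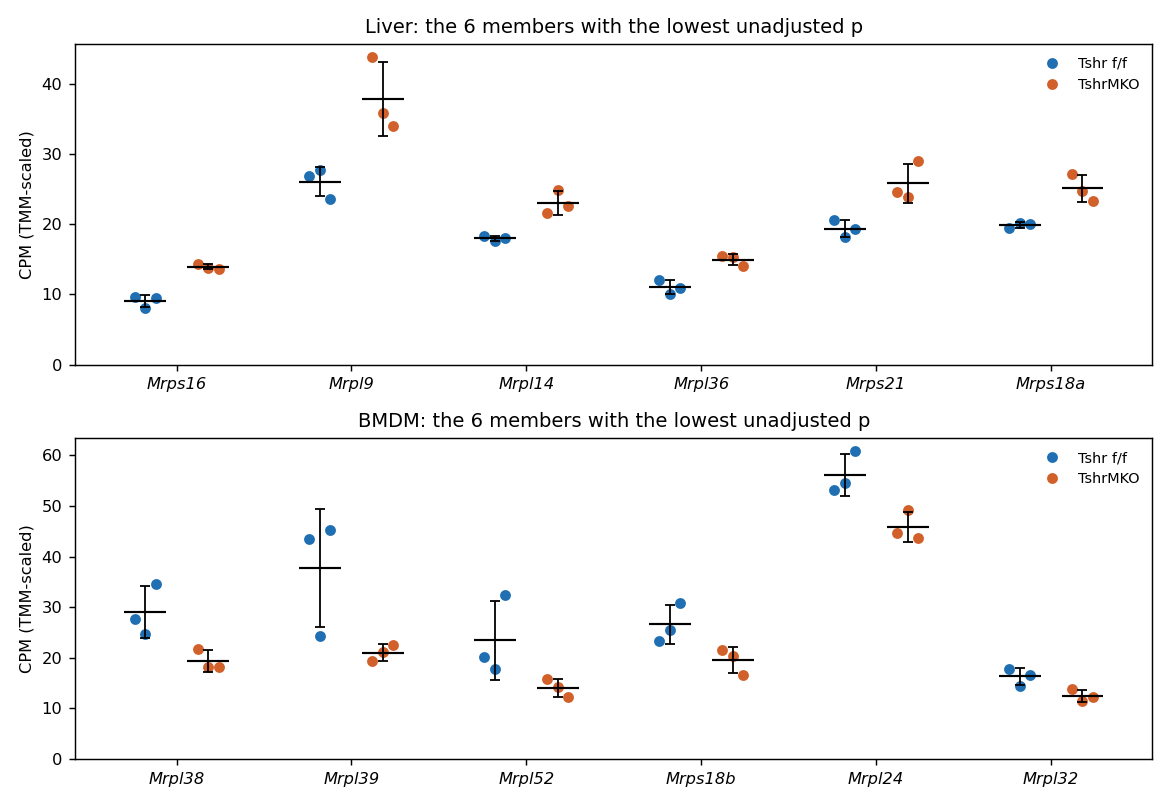
CPM of the 6 members with the lowest unadjusted p in liver (top) and in BMDMs (bottom); points are libraries, lines and bars the mean and SD of 3. In liver each TshrMKO point lies above the Tshr f/f points of its gene, and in BMDMs each lies below them.

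Exon length and marker levels were read beside the liver values. Over all genes the median log2 fold change depended on exon length, at 0.12 for the 1211 genes under 1000 bases and -0.06 for the 2333 genes of 8000 bases or more. Members under 1000 bases (9) had a median of 0.21 against 0.12 for all genes of that length. Members of 1000 to 2000 bases (22) had 0.24 against 0.09, and those of 2000 to 4000 bases (25) had 0.16 against 0.02. Members of 4000 to 8000 bases (18) had 0.23 against -0.05, and those of 8000 bases or more (4) had 0.18 against -0.06. With exon length as an offset, 18 members were higher at an unadjusted p under 0.05 and the median was 0.17.

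Of the 6 hepatocyte markers, 1 (Ttr) was higher at an unadjusted p under 0.05, and their sum was 75993 to 100728 CPM in Tshr f/f and 93320 to 96398 CPM in TshrMKO livers. The neutrophil list, with 1 of its 5 tested genes (Ngp) lower, summed to 6.57 to 68.8 and 8.1 to 13.6 CPM, and the macrophage list to 113 to 312 and 132 to 295 CPM, with 0 of 6 at that p. All 6 genes of the cholangiocyte list were negative and 1 (Cftr) was lower at that p, with sums of 51.5 to 113 and 68.1 to 74.1 CPM. Over all genes 5.27% were higher and 5.18% lower at that p. The part of these marker lists in the result was not tested. The sample IDs of the livers begin with A or B in both genotypes, and with that letter as a covariate 23 members were higher and 0 lower. The count of 21 was 13 without Tshr f/f replicate 3 and ranged up to 30 without Tshr f/f replicate 1, with 0 lower in each of the 6 fits that left out a library.

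Other genes of mitochondrial translation were read from lists. The mitoribosome proteins with other names (5 genes) all had positive values in liver and 4 were higher at an unadjusted p under 0.05. Chchd1, a small subunit protein, had 11.9, 10.9 and 9.32 CPM in Tshr f/f livers and 16.1, 15.1 and 15.0 CPM in TshrMKO livers (0.52 ± 0.13), Aurkaip1 had 0.40 ± 0.10, Ptcd3 0.33 ± 0.10 and Gadd45gip1 0.30 ± 0.09. Of 14 translation factors 1 was higher (Mtrf1, a release factor homolog, 0.42 ± 0.15), and of 25 genes for assembly and rRNA modification 2 were higher (Mrm2, 0.46 ± 0.16, and Trmt61b, 0.69 ± 0.24), with 0 lower in both lists. Over all genes tested in liver 5.27% were higher and 5.18% lower at that p, and the counts of both these lists lay near that share. The list medians were 0.33, 0.12 and 0.08.

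The templates of this ribosome were counted as well. Of the 13 protein-coding genes of mitochondrial DNA, 8 were higher and 0 lower in TshrMKO livers at an unadjusted p under 0.05, with a median of 0.38. Their sum was 53343 to 63660 CPM in Tshr f/f livers and 74496 to 76577 CPM in TshrMKO livers, without overlap. mt-Nd3, a complex I subunit, had 214, 205.5 and 172 CPM against 304, 282 and 306 CPM (0.59 ± 0.12), and mt-Co1, a complex IV subunit, had 0.51 ± 0.14. The 6 genes of mitochondrial transcription had 0 at that p and a median of 0.04, and the 2 mitochondrial rRNA genes had 0 as well. Those 2 summed to 1045 to 2685 CPM in Tshr f/f and 1474 to 2365 CPM in TshrMKO livers. The study describes mRNA sequencing, so their counts may not follow the amount of rRNA.

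Nuclear regulators pointed the other way in number: of 9, 0 were higher and 3 lower, against 5.27% and 5.18% of all genes. Myc, a regulator of growth and ribosome genes, had 4.33, 4.96 and 8.56 CPM in Tshr f/f livers and 2.77, 3.12 and 3.96 CPM in TshrMKO livers (-0.86 ± 0.31). Ppargc1b, a coactivator of mitochondrial biogenesis, had -0.74 ± 0.28. Gabpa, the DNA-binding part of the ETS factor GABP, had 38.1, 37.1 and 38.2 CPM against 34.5, 30.6 and 33.3 CPM (-0.20 ± 0.09). None of the genes of these lists passed the adjusted threshold in liver by edgeR.

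In BMDMs the question was the same for cells that all had received TSH, and the members had no common direction. Of 78, 32 had a positive log2 fold change, against 50.8% of all 15372 genes. At an unadjusted p under 0.05, 0 were higher and 6 lower in TshrMKO, against 7.73% of all genes higher and 10.2% lower. The adjusted count was 0 by edgeR (0.00% of all genes in each direction) and 0 by DESeq2, which called 1223 genes (7.96%). Groups did not overlap in 3 members higher and 14 lower, against 14.8% and 14.0% of all genes.

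The 49 large subunit genes summed to 1035, 1042 and 978 CPM in BMDMs from Tshr f/f mice and 945, 968 and 935 CPM in TshrMKO BMDMs. The 29 small subunit genes summed to 516, 535 and 444 CPM against 497, 495 and 480 CPM. On the TMM scale, where Tshr f/f replicate 3 had a factor of 0.738, each large subunit sum of TshrMKO was below each of Tshr f/f. The small subunit sums overlapped because Tshr f/f replicate 3 was the lowest of all 6. As shares of all counts, without scaling factors, the 78 members took 0.154, 0.176 and 0.105% in Tshr f/f BMDMs. In TshrMKO BMDMs they took 0.156, 0.163 and 0.143%, and these shares overlapped. The large to small ratio was 2.01, 1.95 and 2.21 in Tshr f/f and 1.9, 1.96 and 1.95 in TshrMKO BMDMs.

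The median log2 fold change was -0.04 over the members, -0.05 over the large subunit (5 lower of 49) and 0.03 over the small (1 lower of 29), beside 0.01 over all genes. The sign of the median over the members depended on the scale and on the libraries used, being 0.035 with upper-quartile factors and 0.0054 without Tshr f/f replicate 1. With library size alone 58 members were positive, 1 was lower at an unadjusted p under 0.05, and the median was 0.14, while that of all genes moved from 0.01 to 0.17. Without Tshr f/f replicate 3, 20 were positive and the median was -0.10 over the members and over the small subunit, whose median was also negative (-0.0042) without TshrMKO replicate 3. Tshr f/f replicate 3 had the lowest value of the 6 in 38 members and the highest in 15.

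**Figure D4:**
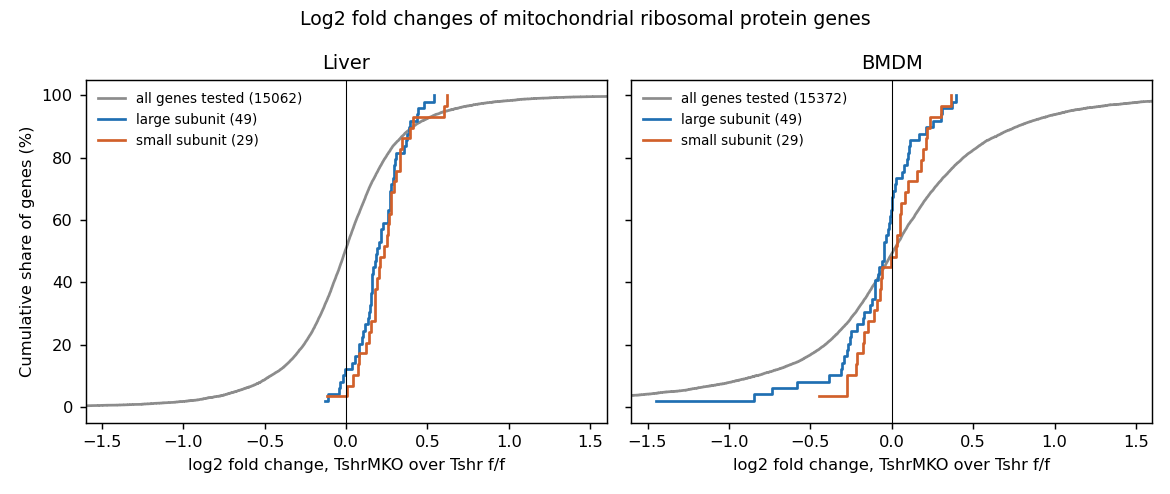
Cumulative share of genes (vertical, %) by log2 fold change, TshrMKO over Tshr f/f, for large and small subunit members and all genes tested, in liver (left) and BMDMs (right); values beyond 1.6 in size are outside the axis. In liver both subunits lie to the right of all genes, with medians of 0.19 and 0.23 against -0.01, and in BMDMs their medians lie at -0.05 and 0.03.

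Mrpl38 (chromosome 11, 116131817 to 116138868), a mitochondria-specific protein of the central protuberance, had 27.6, 24.8 and 34.6 CPM in BMDMs from Tshr f/f mice and 21.8, 18.1 and 18.2 CPM in TshrMKO BMDMs. The groups did not overlap. The log2 fold change was -0.58 ± 0.17 (SE, edgeR adjusted p = 0.222), and -0.43 ± 0.14 without Tshr f/f replicate 3.

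Mrpl39 (chromosome 16, 84717576 to 84735742), whose fold resembles part of a threonyl-tRNA synthetase, had 43.6, 24.2 and 45.3 CPM against 19.3, 21.04 and 22.6 CPM. Tshr f/f replicate 2 lay close to the TshrMKO libraries, although the groups did not overlap. Its log2 fold change was -0.85 ± 0.25 (edgeR adjusted p = 0.223).

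Mrpl52 (chromosome 14, 54426909 to 54429756) had 20.1, 17.9 and 32.4 CPM in Tshr f/f and 15.7, 14.3 and 12.2 CPM in TshrMKO BMDMs. Tshr f/f replicate 3 was far above the other libraries, and the log2 fold change was -0.74 ± 0.25 with it and -0.43 ± 0.16 without it. Mrps18b (chromosome 17, 35910379 to 35916389) had 23.4, 25.5 and 30.8 CPM against 21.5, 20.4 and 16.6 CPM, a log2 fold change of -0.45 ± 0.17, and -0.32 ± 0.15 without that library.

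Mrpl24 (chromosome 3, 87919506 to 87923672) had 53.1, 54.4 and 60.9 CPM against 44.7, 49.3 and 43.6 CPM (-0.29 ± 0.11). Mrpl32 (chromosome 13, 14608184 to 14613165), which is cut by the m-AAA protease before it joins the ribosome, had 17.8, 14.5 and 16.6 CPM against 13.8, 11.4 and 12.2 CPM (-0.39 ± 0.15). In both genes the groups were separate. Without Tshr f/f replicate 3, 5 members were lower at an unadjusted p under 0.05, against 7.4% of all genes. They were Mrpl38, Mrpl39 and Mrpl52 of these 6, with Mrpl13 and Mrps9 in addition. Mrps18b, Mrpl24 and Mrpl32 no longer had such a p. The count was 2 without TshrMKO replicate 2 or without TshrMKO replicate 3, against 5.17% and 7.59% of all genes.

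Mrpl53 had the lowest log2 fold change in BMDMs, -1.45 with an SE of 0.72, and it rested on 1 library. It had 2.54, 2.04 and 11.3 CPM in Tshr f/f and 1.36, 2.64 and 1.76 CPM in TshrMKO BMDMs, and without Tshr f/f replicate 3 the value was -0.25 ± 0.37. The gene lies on chromosome 6 from 83109040 to 83109939 and is covered over 900 bases by the protein-coding gene model Gm42688 on the same strand, so the counts of the pair cannot be told apart with certainty.

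The highest values were those of Mrpl34 (0.39 ± 0.22), Mrpl49 (0.37 ± 0.28) and Mrps26 (0.36 ± 0.21), and none had an unadjusted p under 0.05. Mrpl34 had 8.69, 9.46 and 5.88 CPM in Tshr f/f and 10.3, 11.04 and 10.2 CPM in TshrMKO BMDMs. For all 3 genes Tshr f/f replicate 3 was the lowest library, and without it the values were 0.22, 0.13 and 0.22.

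The 2 members with the lowest p in liver had smaller values in BMDMs. Mrps16 had 11.7, 13.6 and 8.99 CPM in Tshr f/f and 10.8, 12.8 and 12.6 CPM in TshrMKO BMDMs (0.08 ± 0.20), and Mrpl9 had 23.6, 21.9 and 20.4 CPM against 21.5, 22.5 and 21.3 CPM (-0.02 ± 0.12). Both overlapped between the groups. Mrpl12 (-0.05 ± 0.16), Mrpl58 (0.11 ± 0.13), Mrps12 (0.21 ± 0.22), Mrps30 (-0.15 ± 0.14), Mrps18a (-0.22 ± 0.13) and Mrps18c (-0.28 ± 0.13) had no unadjusted p under 0.05 in BMDMs, and the sign of Mrpl12 and of Mrps30 turned with library size alone.

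Among the lists in BMDMs, Chchd1 of the mitoribosome proteins with other names was lower, with 20.8, 21.4 and 20.0 CPM in Tshr f/f and 17.8, 15.3 and 13.8 CPM in TshrMKO (-0.41 ± 0.14), and 0 of the 5 were higher at an unadjusted p under 0.05. Of the translation factors 1 of 14 was lower, Slirp (-0.41 ± 0.16), which binds mitochondrial messenger RNA. Oxa1l, the insertase that receives new chains from the mitoribosome, had 29.9, 31.2 and 22.3 CPM against 40.5, 37.1 and 39.2 CPM (0.48 ± 0.15), the only 1 of 25 in the assembly list at that p. Over all genes tested in BMDMs 7.73% were higher and 10.2% lower at that p, and the counts of 1 of 14 and 1 of 25 did not exceed these shares. Tfb2m, a transcription factor of mitochondrial DNA, was the 1 higher of 6 genes of its list (0.56 ± 0.19). Gabpb1 was the 1 lower of 8 tested nuclear regulators (-0.80 ± 0.31). Of the 13 mitochondrially encoded genes 0 were higher and 0 lower, with a median of 0.10.

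Marker lists were read beside the BMDM values. The list of 6 had 2 higher at an unadjusted p under 0.05 (Lyz2 and Mrc1) and 0 lower, and summed to 14313 to 15993 CPM in Tshr f/f and 19887 to 29306 CPM in TshrMKO. The resident macrophage list had 2 of 5 tested genes lower (Marco and Timd4) and summed to 1445 to 2042 and 1072 to 1510 CPM, with Clec4f at 0, and the fibroblast list had 1 of 4 lower (Pdgfrb) and summed to 628 to 1778 and 383 to 743 CPM, with Lrat at 0. The neutrophil list had 1 of 4 higher and 2 lower and summed to 7.33 to 48.8 and 4.91 to 11.2 CPM. The dendritic cell list had 1 of 4 higher (Itgax) and 1 lower (Ccr7) and summed to 31.3 to 58.2 and 70.4 to 92.7 CPM, and the cholangiocyte list had 1 of 4 higher (Spp1) and summed to 227 to 558 and 832 to 1277 CPM. Over all genes 7.73% were higher and 10.2% lower at that p. The part of these marker lists in the values of the members was not tested.

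Whether the genotype difference itself differed between liver and BMDMs was tested as an interaction over all 12 libraries, with a positive value where the log2 fold change was more positive in liver. At an unadjusted p under 0.05, 25 members were positive and 0 negative, against 7.42% and 7.12% of all 17246 genes. The median was 0.27 (0.28 in the large and 0.27 in the small subunit) beside 0.01 over all genes, and 63 of 78 were positive, against 50.6% of all genes. The adjusted count was 0 by edgeR, where 0.00% and 0.00580% of all genes passed in the 2 directions, and 5 by DESeq2, which called 4.49% of all genes.

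The count of 25 depended on the scale. With library size alone 3 members were positive at that p, against 4.6% of all genes. Their median was 0.15 over all 78, while the median of all genes moved from 0.01 to -0.13. With upper-quartile factors, without TshrMKO BMDM replicate 2 and without Tshr f/f liver replicate 2 it was 16, and it was 0 in the negative direction in all 3 of these fits. It rested on the liver labels as well. With these crossed, an alternative chosen after seeing the data, 2 members were positive and 8 negative at that p, against 7.46% and 6.62% of all genes. The median was -0.17, beside -0.03 over all genes. The value of Mrps10 was then -0.03, that of Mrps9 -0.16, that of Mrpl32 0.07 and that of Mrpl38 0.48, none with an adjusted p under 0.05 (edgeR).

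Mrps10 had the lowest p. It had 18.9, 18.3 and 18.015 CPM in Tshr f/f livers and 22.1, 22.1 and 22.8 CPM in TshrMKO livers, and in BMDMs 19.7, 18.3 and 18.9 CPM in Tshr f/f and 16.4, 16.0 and 14.7 CPM in TshrMKO. The groups were separate in both tissues, higher in TshrMKO in liver as labelled and lower in BMDMs. The interaction was 0.55 ± 0.13 (SE), with an adjusted p of 0.147 by edgeR and 0.00043 by DESeq2.

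Mrpl32, the only member with an unadjusted p under 0.05 in both tissues, lost that p in BMDMs without Tshr f/f replicate 3. It had 13.1, 13.01 and 12.8 CPM in Tshr f/f livers and 16.0, 14.8 and 16.8 CPM in TshrMKO livers. This was a log2 fold change of 0.29 ± 0.10, against -0.39 ± 0.15 in BMDMs, and the interaction was 0.68 ± 0.17 (adjusted p = 0.163 by edgeR and 0.0084 by DESeq2). Mrps9, a small subunit protein whose bacterial counterpart reaches the peptidyl-tRNA site, had 13.6, 14.1 and 13.9 CPM against 17.2, 17.2 and 17.2 CPM in liver and 26.4, 25.9 and 22.5 CPM against 21.4, 21.4 and 23.4 CPM in BMDMs. Its interaction was 0.49 ± 0.15 (adjusted p = 0.211 by edgeR and 0.00682 by DESeq2).

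Mrpl38 had an interaction of 0.67 ± 0.20 (edgeR adjusted p = 0.208), with a liver value of 0.08 ± 0.10 and overlapping liver groups. DESeq2 also called Mrpl9 and Mrpl24. Without Tshr f/f BMDM replicate 2 edgeR called Mrpl39 and Mrpl32, in a fit that called 341 genes (1.93% of all genes).

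**Figure D5:**
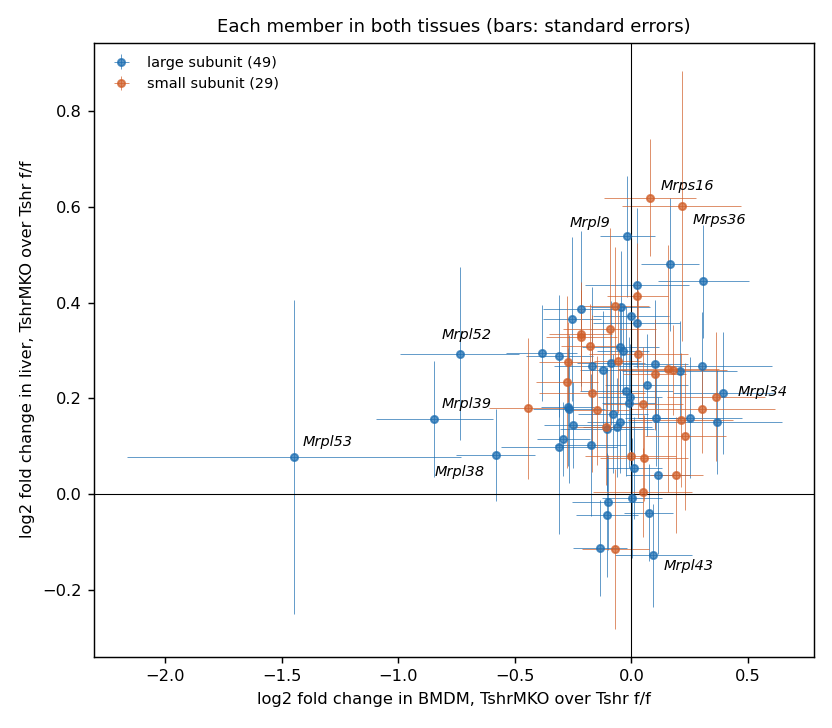
Log2 fold change, TshrMKO over Tshr f/f, of each member in liver (vertical) and in BMDMs (horizontal); bars are standard errors and colours the subunits. In liver 71 of 78 points lie above 0, and in BMDMs 32 lie to the right of 0.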

How the data were processed

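RNA of 12 samples was sequenced strand-specifically on a NovaSeq sequencer, and the authors deposited whole-number counts of reads per gene. Skewer and FastQC 0.11.2 handled the reads per the study's methods, and the submitters' processing notes list STAR, StringTie and mm10. The counting program and its strand setting are not given in the sources used here, so reads of the 36 members that overlap a gene on the opposite strand, the 13 that overlap one on the same strand and those with pseudogene copies may be shared. All 72 published receptor counts of the livers are found in libraries that carry the other genotype label.

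Counts were tested with edgeR 4.0.16 in R 4.3.3 (quasi-likelihood, robust, TMM, filterByExpr). p-values were adjusted by Benjamini-Hochberg over all genes of a fit at a threshold of 0.05, and the SE is the log2 fold change over the square root of F. CPM are TMM-scaled within a tissue, or over all 12 libraries for the tissue comparison. The genotype-by-tissue term came from 1 fit of 12 libraries. The labels do not say that replicates are separate animals or cultures, so p-values measure the spread between these samples. DESeq2 1.42.0 and other scalings, filters, offsets, a replicate block and left-out libraries were alternatives. GC content and lengths came from GENCODE M21, promoters from RefSeq (GRCm38.p6), and tables from python with pandas 2.3.3.

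Members and lists were chosen with earlier results of these data known. Named in the text, by rule, are the 6 members of lowest p and the 3 highest and 3 lowest fold changes in each tissue, the 4 lowest p of the interaction, the 4 highest and 4 lowest of the tissue comparison, the highest and lowest levels per length, and Mrps18a, Mrps18b, Mrps18c, Mrps30, Mrpl12, Mrpl58 and Mrps12. Genes of other lists are named at an unadjusted p under 0.05. The fits were tested on simulated data before use. Of 100 genes changed 1.5-fold, 6% were called at the adjusted threshold in liver, 0% in BMDMs and 0% in the interaction. Of 100 genes changed 3-fold, 73%, 23% and 15% were called. Unchanged genes made up 12.2%, 8% and 0% of all calls. An adjusted count of 0 therefore cannot exclude changes of 1.5-fold. No library without TSH was analysed here.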

Additional observations from a re-analysis of the deposited data

How the results depend on the processing

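The members had a median mean count of 620.5 in liver and 683 in BMDMs, and with 3 libraries a group the median SE of a log2 fold change was 0.12 and 0.15. Of the recomputed counts and medians, 399 stayed within 1.5 times or 1 SD, and 45 did not. In liver, the members higher at an unadjusted p under 0.05 ranged from 13 (without Tshr f/f replicate 3) to 30 with a library left out, and the large subunit median from 0.13 to 0.23; DESeq2 called 2 at an adjusted p under 0.05. In BMDMs, the lower members numbered 3 with upper-quartile factors, 2 with the replicate block, 1 with library size alone and 2 to 6 with a library left out. The higher numbered 1 with all 12 libraries in 1 fit and 0 to 1 with a library left out. With library size alone 58 members were positive, at medians of 0.14 (all), 0.11 (large) and 0.15 (small). With a library left out 20 to 41 were positive, and the small subunit median ran from -0.10 to 0.12. The BMDM value of Mrpl12 turned to 0.0185 with upper-quartile factors and to 0.0949 with library size alone and ran from -0.190 to 0.0497 with a library left out, turning without Tshr f/f replicate 1 or 2, and that of Mrps30 turned to 0.0395 with library size alone. For the interaction, 5 members passed by DESeq2, which called 4.49% of all genes. With a library left out 0 to 2 passed, and the fit with 2 called 1.93% of all genes. Positive members of the interaction at an unadjusted p under 0.05 numbered 16 with upper-quartile factors, 3 with library size alone (an alternative chosen after seeing the data) and 16 to 30 with a library left out. Its medians were 0.15 (all), 0.14 (large) and 0.17 (small) with library size alone, and the small subunit median ran from 0.19 to 0.37. With the liver labels crossed, also chosen after seeing the data, 2 were positive and 8 negative at that p, against 7.46% and 6.62% of all genes. At any p 18 were then positive, the medians were -0.17 (all), -0.13 (large) and -0.26 (small), and Mrps10 and Mrps9 turned to -0.0251 and -0.155. Between tissues, library size alone left 22 members past the threshold, against 65.5% of all genes. With it 42 members were positive, at medians of 0.0514 (all), 0.0603 (large) and 0.0223 (small). The medians were 0.75, 0.76 and 0.72 with upper-quartile factors and 0.78, 0.80 and 0.74 with length offsets, and that of the large subunit ran from 0.80 to 0.98 with a library left out. The Mrpl23 difference ran from -0.158 to 0.0360, turning without Tshr f/f liver replicate 3. The cause was not tested.

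Deviations of same-numbered samples of the 2 genotypes from their group means had correlations of -0.0562, 0.217 and -0.0209 in liver and 0.0959, 0.0126 and 0.102 in BMDMs. Differently numbered samples ran from -0.291 to 0.281 in liver and from -0.191 to 0.153 in BMDMs. No pairing by replicate number was seen, but so few samples cannot exclude one. With the replicate number as a block, 19 members were higher in liver, 2 lower in BMDMs and 21 positive in the interaction.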
